A study of Mus musculus with 3 samples.

Results

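Aortic group 2 innate lymphoid cells (ILC2) were 201 of the 5894 usable aortic CD45+ cells of the series (3.41%). They were selected on measured transcripts. A barcode counted as usable when its highest hashtag count was at least 3 times the second, mitochondrial genes took at most 10% of its UMIs (unique molecular identifiers, each standing for 1 captured mRNA) and it had at least 1000 UMIs. An ILC2 had at least 1 UMI of Gata3, at least 2 UMIs over Il5, Rnf128, Ccdc184, Il1rl1 and Ptpn13 together, at most 1 of Cd3e, at most 1 of Cpa3, none of Cd79a, and fewer than 10 C1qa, C1qb and C1qc UMIs per 10000. The antibody counts were not used in the choice.

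All cells came from 10 mice on a C57BL/6 background, pooled into 1 droplet run after each aorta had been labelled with its own hashtag antibody. The 5 Jak2V617F Myel mice (mice 6 to 10, Jak2V617F MyC in the labels) carried a floxed Jak2V617F allele and LysM-Cre, so the gain-of-function kinase is switched on where lysozyme 2 has been expressed, in myeloid cells. ILC2 are not a target of that Cre by design. The 5 Jak2WT mice (mice 1 to 5) were littermate controls. An aneurysm was seen at collection in mice 7 and 9, and mice 6, 8 and 10 had dilation. Their age is not given in the sources used here. Leukocytes in the blood had been stained through the vein with anti-CD45.2 and were left out of the sort. The sort also mixed both genotypes to about the same number of cells, so only shares within a mouse can be compared. The 201 ILC2 held 1296041 UMIs and 69316 counts of the antibody panel, with a median of 6018 UMIs per cell (lowest 1426, highest 28129). The summed UMIs per mouse ran from 36585 to 290305.

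ILC2 are the innate counterpart of T helper 2 cells. They have no rearranged antigen receptor and sit in barrier tissues, fat and the adventitia around vessels, where they respond to alarmins of damaged cells, chiefly IL-33 through its receptor ST2 (IL1RL1), and to IL-7 through CD127. GATA3 sets up the lineage, and the activated cell releases IL-5, IL-13, GM-CSF (Csf2) and amphiregulin (Areg), which act on eosinophils, macrophages and the repair of tissue.

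The transcript-based choice was checked with the antibodies against IL1RL1 and CD127. Of the 201 ILC2, 127 (63.2%) had an IL1RL1 count and 176 (87.6%) a CD127 count, and 56.7% had both. The share with both was 3.02% in T cells, 9.28% in mast cells, 3.22% in macrophages, 0.169% in B cells and 0% in the 85 NK cells. These other classes were gated on their own transcripts (662 T, 85 NK, 592 B, 97 mast and 3073 macrophage cells). Seen from the antibodies, 297 cells had at least 1 count of each, and 114 of them were ILC2, against 99 macrophages, 20 T cells, 9 mast cells, 1 B cell and 54 cells of no gated class. With at least 2 counts of each, 79 cells remained and 42 of them were ILC2. The antibodies therefore separated ILC2 from T, NK and B cells by share, while a gate on 1 count of each held nearly as many macrophages as ILC2. Il1rl1 transcripts counted towards the choice, so the share with IL1RL1 was fixed in part by it.

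Cells next to the limits of the rule differed in how far they resembled members on the antibodies. Members carried on average 1.14 IL1RL1 and 2.84 CD127 counts, with 0.294 of CD3 and 0.129 of TCRbeta. The 22 cells kept out only by more than 1 Cd3e UMI had nearly the same IL1RL1 (1.0) and CD127 (2.64), but 7.45 counts of CD3 and 7.55 of TCRbeta, the receptor of T cells. The 9 cells kept out only by Cpa3 had 24 IL1RL1 and 117 CD117 counts, CD117 being the stem cell factor receptor of mast cells. The 58 cells kept out only by the sum of the other markers had 0.069 IL1RL1 counts. Just inside the limits, 43 members had exactly 1 Gata3 UMI and 5 had a marker sum of exactly 2. Those 5 had 0.2 counts of IL1RL1 and 0.2 of CD127 on average.

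A few members carried transcripts or antibodies of another cell type. The 4 members above 15000 UMIs were all of this kind. In mouse 5, barcodes with 19521 and 18234 UMIs held 304 and 355 UMIs of the fibroblast genes Col1a1, Col3a1 and Dcn, whereas no member outside the 7 described here had more than 5. In mouse 7, a barcode with 28129 UMIs held 881 UMIs of Cd74, the invariant chain of MHC class II, 381 of the dendritic cell chemokine Ccl17 and 1505 counts of the antibody against I-A/I-E. Another in mouse 7, with 20187 UMIs, held 309 UMIs of Cd74 and 249 counts of the CD103 antibody. Among the 197 smaller members, 1 in mouse 7 had 70 UMIs of NK genes, 1 in mouse 5 had 98 CD5 and 18 TCRbeta counts, and 1 in mouse 9 had 41 CD5 counts. The highest of the other 194 members had 1 UMI of NK genes, 27 of Cd74 and 10 CD5 counts, but 941 counts of the I-A/I-E antibody, which alone does not set a barcode apart. No doublet caller was run, and the hashtags can only reveal droplets that joined cells of 2 different mice. What these barcodes are was not tested.

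The surface of ILC2 was compared with that of T cells of the same mouse. Antibody counts were summed per mouse and class over the 8 mice with at least 10 ILC2 and tested with edgeR's quasi-likelihood test with mouse as a block, Benjamini-Hochberg adjusted over 55 antibodies. Of these, 25 differed (45.5% of those tested), 12 higher in ILC2 (21.8%) and 13 lower (23.6%). T cells were gated on Cd3e, while ILC2 were limited in Cd3e and chosen in part on Il1rl1. The directions of IL1RL1, CD3 and other T cell molecules were thus fixed in part by the choice of cells. IL1RL1 was at 0.6, 1.056, 1.462, 1.108, 1.175, 1.045, 1.067 and 1.389 counts per cell in the ILC2 of mice 1, 2, 5, 6, 7, 8, 9 and 10, and between 0 and 0.271 in their T cells. The groups did not overlap, and the log2 fold change was 4.26 (SE 0.524, adjusted p = 2.205e-05). CD117, which binds stem cell factor, was at 0.222 to 3.333 counts per cell in ILC2 and 0.036 to 0.389 in T cells. ILC2 had more in each of the 8 mice, by under 1 count in mice 2, 5 and 8 (log2 fold change 3.14, SE 0.391, adjusted p = 2.205e-05).

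CD127, the IL-7 receptor that T cells also carry, was closer between the classes. It was at 1.556 to 4.056 counts per cell in ILC2 and 0.982 to 3.23 in T cells, and mouse 7 had more on its T cells (3.23) than on its ILC2 (2.725). The log2 fold change of 1.06 (SE 0.299) passed at an adjusted p of 0.01028. The hyaluronan receptor CD44 (log2 fold change 1.58, adjusted p = 0.001364), the integrin chain CD49d (1.37, adjusted p = 0.001279) and the tetraspanin CD9 (1.63, adjusted p = 0.0005053) were higher on ILC2, as was CD24 (1.65, adjusted p = 0.01397). Per cell, however, CD24 was lower on ILC2 than on T cells in mice 6 (21.2 against 27.8) and 10 (24.8 against 39.8). In mouse 5, CD9 (2.92 against 4.17) and CD49d (3.231 against 3.286) were lower on ILC2. CD44 was at 60.5 to 110.6 counts per cell on ILC2 in every mouse, but varied from 19.3 to 110.1 on T cells. Also higher were CD137L, CD47, CD68, CD169 and MGL1, the last 3 being macrophage molecules at averages of at most 1.778 counts per cell in ILC2 of any mouse. Per cell, CD68 was lower on ILC2 in mice 5 and 6, CD169 in mice 1 and 7, and MGL1 in mice 1 and 5.

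The molecules of T cell recognition and lymph node homing were almost bare on ILC2. L-selectin (CD62L) was at 0 to 0.333 counts per cell in ILC2 and 5.25 to 17.354 in T cells (log2 fold change -5.48, SE 0.38, adjusted p = 1.977e-07). CD5, at 80.2 to 166.1 counts on T cells, was at 0.182 to 1.7 in the ILC2 of 7 mice and at 7.846 in mouse 5, where 1 cell held 98 of the counts. CD3 (-3.90), TCRbeta (-5.51), CD4 (-5.75), CD8a (-5.84), CD103 (-4.85) and TCRgd (-3.83) were lower too, and so were JAML, CD26, CD55, Ly6C and CD86. Since Cd3e divided the 2 classes, the low counts of T cell molecules describe the gates as well as the cells. For CD103, 1 ILC2 of mouse 7 held 249 counts. CD278 (ICOS), a coreceptor that ILC2 share with T cells, differed by 0.46 (adjusted p = 0.4067) and was not called. With the total antibody count in place of TMM as library size, 34 antibodies passed, 21 higher and 13 lower, among them all 25 above. With the number of cells as library size 24 passed, 9 higher and 15 lower, of which 22 were shared.

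**Figure D1:**
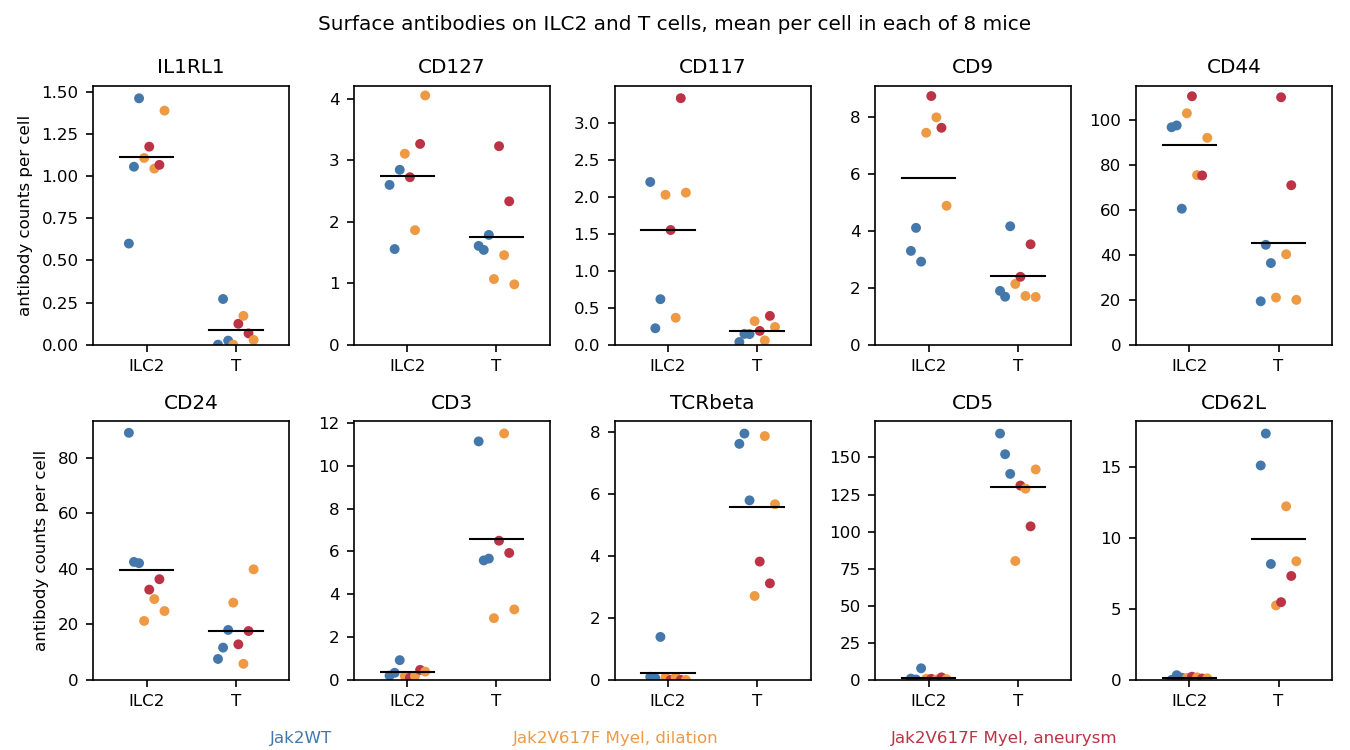
Mean antibody counts per cell (linear axes, each from 0) in ILC2 and T cells of the 8 mice with at least 10 ILC2, 1 point per mouse, coloured by group, with black bars for the mean over mice. IL1RL1 separates the classes without overlap (ILC2 from 0.6, T cells up to 0.271), CD127 and CD24 overlap, and CD3, TCRbeta, CD5 and CD62L are near 0 in ILC2 but for the CD5 and TCRbeta points of mouse 5.

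The share of ILC2 among the usable CD45+ cells of a mouse differed 6.27-fold between the highest and lowest mouse. In Jak2WT mice 1 to 5 it was 3.155%, 4.467%, 1.391%, 3.425% and 1.988%, from 10, 18, 8, 5 and 13 cells. In the dilation mice 6, 8 and 10 it was 8.726%, 5.276% and 2.02%, from 37, 22 and 18 cells. In the aneurysm mice 7 and 9 it was 3.964% and 2.836%, from 40 and 30 cells. Mouse 6 stood highest, with an exact 95% interval of 6.219% to 11.83% that covers counting error only, mouse 8 also lay above the highest Jak2WT mouse, and the other 3 mutant mice lay within the Jak2WT range.

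The mean share was 2.89% ± 1.22 in Jak2WT (SD, n = 5) and 4.56% ± 2.63 in Jak2V617F Myel mice (SD, n = 5). The difference of 1.68 percentage points was within the spread of the mice (exact two-sided permutation test, p = 0.2302, the smallest possible being 0.007937), and it was 0.639 points without mouse 6. The 2 aneurysm mice averaged 3.4% and the other 8 averaged 3.81% (difference -0.406 points, exact permutation p = 0.8444). The sign of this difference turned without mouse 6 (0.297), without mouse 9 (0.1584) and when cells of every class above 15000 UMIs were left out (0.0537). It also turned with lymphoid cells as denominator (4.999 points). Against dilation alone the aneurysm mice differed by -1.94 points (exact permutation p = 0.6, where 2 against 3 mice cannot go below 0.1). As a share of lymphoid cells, ILC2 made up 10.9% ± 6.13 (SD, n = 5) in Jak2WT and 19% ± 8.26 (SD, n = 5) in mutant mice, with the highest value again in mouse 6 (30.6%) and the lowest in mouse 3 (3.16%).

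**Figure D2:**
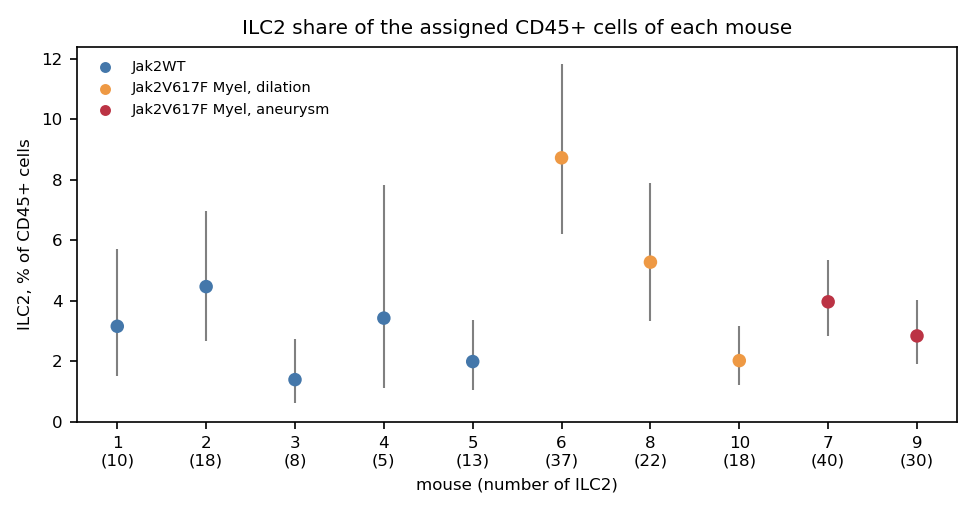
ILC2 as a percentage of the usable CD45+ cells of each mouse, with exact 95% binomial intervals as grey lines and the number of ILC2 in brackets under each mouse. The Jak2WT mice lie between 1.391% and 4.467%, and mouse 6 (8.726%) lies above all others, while mouse 10, also with dilation, lies at 2.02%.

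The transcripts that set ILC2 apart are a description, since transcripts chose the cells. They are given as CPM, the counts scaled to the same total in every sum, from UMIs summed per mouse and averaged over the 8 mice, beside the mean of all other cells of those mice. Among the 2303 genes at 50 CPM or more, the 20 with the highest ratio to the other cells began with Il5 (270 CPM, 283-fold), Dach2 (106 CPM, 170-fold), Olfr1259 (69.2 CPM, 105-fold), Ccdc184 (243 CPM, 105-fold) and the chemokine Ccl1 (254 CPM, 98.8-fold), and held Il13 (292 CPM, 77.1-fold), Csf2 (738 CPM, 62.4-fold) and Gata3 (661 CPM, 53.9-fold). Ptpn13 (362 CPM, 76.8-fold) and Rnf128 (377 CPM, 69.8-fold), an E3 ubiquitin ligase, were among them by construction, like Il5, Ccdc184 and Gata3, since the rule counted them. Genes that the rule did not name were Calca (295 CPM, 60.6-fold), which encodes the neuropeptide CGRP, the inhibitory receptor Klrg1 (233 CPM, 56.1-fold), the polarity gene Pard3 (141 CPM, 71.8-fold), the heparan sulfate enzyme Hs3st1 (358 CPM, 44.3-fold) and the prohormone convertase Pcsk1 (58.8 CPM, 54.4-fold). The remaining members of the 20 were Acbd7, Runx1t1, Klf5, Stc2 and Bmp7, at 56 to 74 CPM.

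Of the markers that name the cells, Gata3 ranged from 355 to 901 CPM over the 8 mice, against 91.2 in T cells, 59.4 in mast cells and 2.67 in macrophages. Areg was at 1023 ± 524 CPM (SD, n = 8 mice) against 55 in T cells and 92.8 in macrophages, and Csf2 at 738 ± 318 against 19.3 and 14.6. Il1rl1, at 813 ± 113 CPM, was lower than in mast cells (1640) and far above T cells (32.3), and Il7r, at 1198 ± 221, was near the level of T cells (1089). Gata3, Rnf128 and Il1rl1 took part in the choice of cells, so their level in ILC2 was fixed in part by it, while Csf2, Areg and Il7r did not. Il1rl1 and Il7r each had a second class at a like or higher level.

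**Figure D3:**
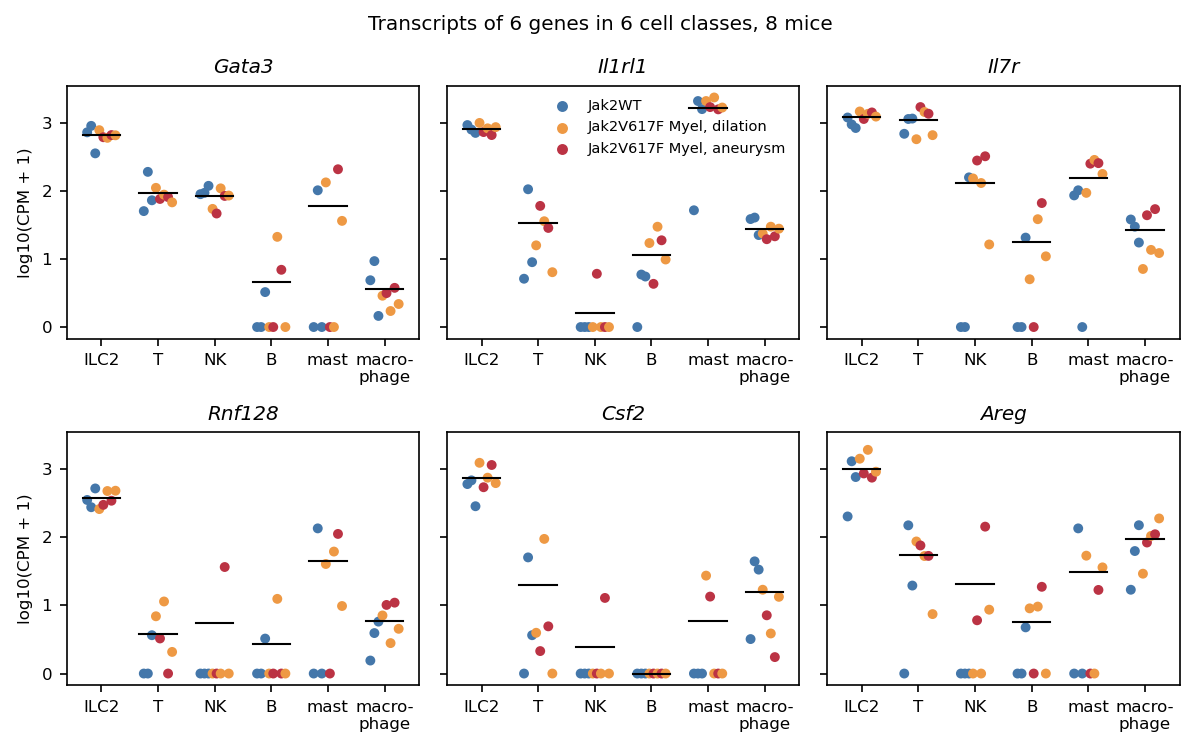
Log10 of CPM + 1 for 6 genes in 6 cell classes, 1 point per mouse (8 mice, coloured by group), with black bars at the mean CPM over mice. Gata3, Rnf128, Csf2 and Areg are highest in ILC2, Il1rl1 is highest in mast cells (1640 CPM against 813 in ILC2), and Il7r is alike in ILC2 and T cells.

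Among receptors for alarmins and cytokines other than ST2 and CD127, the IL-2 receptor chain Il2ra was at 398 ± 96.9 CPM (84.7 in T cells) and Il2rg, the common gamma chain, at 493 ± 131, while Il2rb was at 60.3 against 1003 in NK cells. Receptors for IL-25 (Il17rb, 26.5 CPM) and IL-9 (Il9r, 41 CPM) were low in number of UMIs but 26.7- and 16.3-fold above the other cells. The TSLP receptor chain Crlf2 was at 59.1 CPM, below the 104 CPM of the other cells, and the IL-18 receptor Il18r1 at 14.2 against 118 in T cells. Tnfrsf18 (GITR), a costimulatory receptor, was at 507 ± 180 CPM and 84.8 in T cells.

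Among transcription factors, Rora, which is needed for ILC2 to develop, was at 829 ± 190 CPM against 328 in T cells. Ets1 (635 CPM, 770 in T cells) was found in 92.5% of ILC2. Id2 (616 CPM, 185 in T cells and 696 in NK cells), the inhibitor that all innate lymphoid cells need, was found in 76.6%. Tcf7, a factor of early T and innate lymphoid cells, was at 19.3 CPM against 485 in T cells, and Bcl11b at 143 against 358. Pparg, a lipid sensor, was at 72.7 CPM against 2.66 in T cells. Transcripts of the T lineage were uneven. Trbc2, a constant region of the T cell receptor beta locus, was at 484 CPM (1689 in T cells) and Cd3g at 170 (792), but Cd3d was at 15.4 (835) and Trdc at 1.81 (275). The 10 T cell markers summed to 885 CPM in ILC2 and 6068 in T cells.

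Of the trafficking receptors, Ccr2 was at 624 ± 215 CPM (215 in T cells) and Cxcr6 at 209 ± 78.7 (273 in T cells). The retention receptor Cd69 was at 295 (118 in T cells, 383 in B cells). By contrast S1pr1, the exit receptor, was at 8.42 CPM (281 in T cells) and Klf2, which drives it, at 85.2 (435). The coreceptor for CGRP, Ramp1, was at 300 CPM against 258 in T cells, and the prostacyclin receptor Ptgir at 115 against 3.03. Nmur1, the neuromedin U receptor, had 2.83 CPM in ILC2, and Ptgdr2, the prostaglandin D2 receptor used to sort ILC2 elsewhere, had no UMI in the ILC2 of these mice. The proliferation gene Mki67 was found in 2.49% of ILC2. The 20 cell cycle genes summed to 1332 CPM, led by Hmgb2 at 634. Their sum was 3554 CPM in T cells, 4958 in NK cells, 2855 in mast cells, 1150 in B cells and 1757 in macrophages.

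The marker lists of B, mast, T and macrophage cells each hold a gene that the rule limited in members (Cd79a, Cpa3, Cd3e, and C1qa with C1qb), so their low sums were fixed in part by the choice of cells and are a description. The ILC3 genes Il22, Il23r and Il17a had no UMI, the 6 NK markers summed to 33.5 CPM against 7652 in NK cells, and the 4 B cell markers to 2.93 against 3928. The NK sum was 261.8 CPM in mouse 7, 5.838 in mouse 9 and 0 in the other mice. The 6 mast cell markers summed to 196 CPM (49600 in mast cells), 133 of it Kit, and the 7 macrophage markers to 838 CPM (39210 in macrophages), led by Apoe at 326. T cells held 725 CPM of the same macrophage genes, NK cells 779 and B cells 1762. The 3 fibroblast markers summed to 838 ± 2290 CPM in ILC2, with 6495 CPM in mouse 5 and at most 76 in each of the other 7 mice, and mouse 5 had no Dcn UMI without its large barcodes.

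How the cytokine transcripts were spread over single ILC2 set them apart from the receptor transcripts. Il5 UMIs were found in 48 of 201 cells (23.9%) and Il13 in 36 (17.9%), against 190 for Il1rl1 (94.5%) and 194 for Il7r (96.5%). The 20 cells with most held 88% of all Il5 UMIs, 94.3% of Il13, 66.4% of Csf2 and 54.5% of Areg, but 25.1% of Il1rl1 and 20.4% of Il7r. Il5 and Il1rl1 counted towards the choice of cells, while Il13, Csf2, Areg and Il7r did not. A single cell had up to 49 UMIs of Il5, 49 of Il13, 80 of Csf2 and 54 of Areg. For Il5, Il13 and Csf2, most ILC2 had no UMI at this depth and a small number had many, whereas Areg was found in 108 cells (53.7%). Hes1, a Notch target, and Calca were similarly gathered, with 98.3% and 78.4% of their UMIs in 20 cells.

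To set these shares beside cells of other depth, every cell was thinned to 2000 UMIs, which left out 2 ILC2. Then 16.1% of ILC2 had Il5, 11.6% Il13, 28.6% Csf2 and 43.2% Areg (before thinning 23.9%, 17.9%, 38.3% and 53.7%, median depth 6018 UMIs). In 400 B cells thinned the same way, a class that should lack these genes, 0 had Il5, 0 Il13 and 0 Csf2, and 0.75% had Areg (median depth before thinning 5726). In T cells the shares were 0.25%, 0.5%, 1.25% and 4.75% (median depth 7642.5). The ILC2 shares varied between mice. At 2000 UMIs Il13 was in 0% of the ILC2 of mouse 1, 4.55% in mouse 8 and 23.5% in mouse 2, Csf2 in 10% (mouse 1) to 37.8% (mouse 6), and Areg in 10% of mouse 1 and 40% to 58.8% of the other 7 mice.

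**Figure D4:**
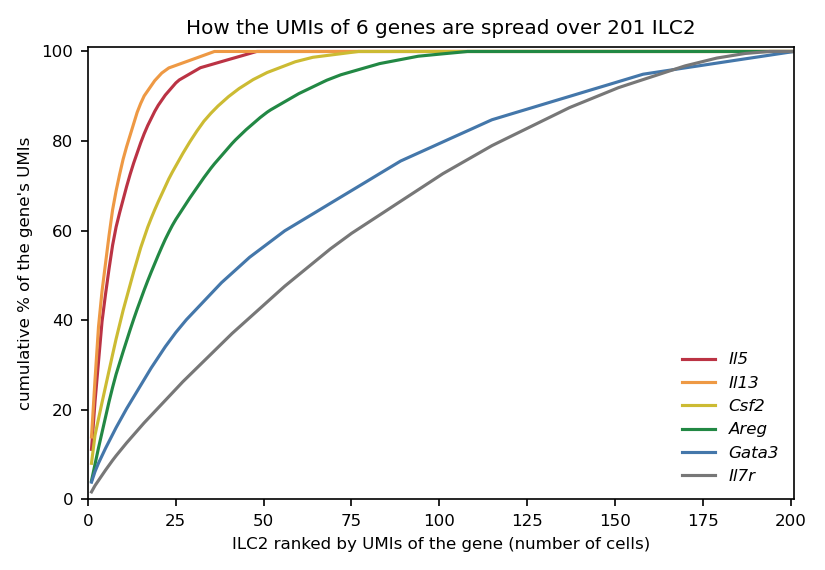
Cumulative percentage of a gene's UMIs (vertical axis) over the 201 ILC2 ranked by their UMIs of that gene (horizontal axis, number of cells). The curves of Il13 and Il5 reach 94.3% and 88% within 20 cells, those of Csf2 and Areg 66.4% and 54.5%, and those of Gata3 and Il7r 31.7% and 20.4%.

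The genes of 3 of these cytokines are neighbours. On GRCm38 chromosome 11, Il4 (chr11:53602982-53618669), Il13 (chr11:53631324-53634702, minus strand) and Il5 (chr11:53720794-53725106, plus strand) lie within 122 kb around Rad50, and Csf2 (chr11:54247271-54249667, minus strand) lies 522 kb beyond Il5. Areg is on chromosome 5. The 250 bases before the RefSeq start of the clustered genes are shown because GATA3 is the factor that defines the cells. They are from GRCm38.p6, 5′ to 3′ on the strand of the gene, with capitals for a match on either strand to the GATA motif, meaning A or T, then GATA, then A or G.
Il5 (chr11:53720544-53720793): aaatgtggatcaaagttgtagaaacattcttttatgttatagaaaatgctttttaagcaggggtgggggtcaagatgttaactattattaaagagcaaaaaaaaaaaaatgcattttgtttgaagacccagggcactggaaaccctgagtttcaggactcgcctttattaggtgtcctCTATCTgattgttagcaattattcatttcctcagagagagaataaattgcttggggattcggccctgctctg
Il13 (chr11:53634703-53634952): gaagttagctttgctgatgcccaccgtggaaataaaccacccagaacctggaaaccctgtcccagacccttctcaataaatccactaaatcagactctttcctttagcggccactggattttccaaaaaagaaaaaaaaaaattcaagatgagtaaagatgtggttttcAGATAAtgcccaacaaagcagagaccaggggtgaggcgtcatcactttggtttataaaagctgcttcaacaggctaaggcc
Csf2 (chr11:54249900-54250149): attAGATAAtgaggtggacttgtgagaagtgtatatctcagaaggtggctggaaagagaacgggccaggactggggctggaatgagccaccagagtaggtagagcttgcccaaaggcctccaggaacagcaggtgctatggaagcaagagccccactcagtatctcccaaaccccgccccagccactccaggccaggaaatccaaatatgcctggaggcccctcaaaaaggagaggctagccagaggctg
The RefSeq start of Csf2 lies upstream of the start of the GENCODE gene given above, while those of Il5 and Il13 are the same in both. Each of these windows held 1 match, at -72 (Il5, on the opposite strand), -81 (Il13) and -247 (Csf2) from the RefSeq start, and the window of Areg held none. Of 32851 promoter windows of the same length, 26.5% held at least 1, so a match is common, and it does not show binding. The AP-1 letters TGANTCA, found in 6.75% of windows, were in none of the 4.

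Of the 48 cells with Il5, 22 (45.8%) also had Il13, which was 61.1% of the 36 cells with Il13 (Spearman's rho of UMI shares 0.45 over 201 cells, which share 1 run). Il5 was also found together with Areg in 41 cells (85.4% of those with Il5) and with Csf2 in 24 (50%). Of Il5, Il13, Csf2 and Areg, 62 ILC2 (30.8%) had none, 58 had 1, 43 had 2, 27 had 3 and 11 (5.47%) had all 4. Il4, the neighbour of Il13, had 23 UMIs in 16 cells, and its mean of 18 CPM was below the 134 CPM of mast cells.

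The 62 ILC2 with an Il5 or Il13 UMI were not much deeper than the 139 without (median 6470.5 against 5878 UMIs) and carried like counts of CD127 (2.82 against 2.84), with 1.45 against 1.01 of IL1RL1. Of the 62, 16 were from mouse 6 and 21 from mouse 7, so the split is in part one between mice. As a description over cells, with genes chosen after their values were seen, Nr4a3, an orphan nuclear receptor, was at 943 against 294 CPM, Mir155hg, the host of miR-155, at 216 against 49.1, Pdcd1lg2 (PD-L2) at 114 against 33.1, Ccl1 at 463 against 136, Rgs1 at 518 against 173, and Egr3 at 185 against 70.9. Cxcl2, a neutrophil chemokine, was at 1360 against 509. The genes lowest in them included Dcn (1 UMI against 441) and Ccl17 (1 against 381). In mouse 5 Dcn was at 4220 CPM and at 0 without the 2 large barcodes, and all 381 Ccl17 UMIs of the other side were in 1 large barcode of mouse 7.

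The mice differed widely in these cytokines. Il5 was at 16.8, 463.7 and 78.9 CPM in Jak2WT mice 1, 2 and 5, at 497.3, 106.4 and 9.5 in dilation mice 6, 8 and 10, and at 644.2 and 344.5 in aneurysm mice 7 and 9. The share of ILC2 with Il5 or Il13 was 52.5% in mouse 7 (21 of 40 cells) and 43.2% in mouse 6 (16 of 37), and 9.09% in mouse 8 (2 of 22) and 11.1% in mouse 10 (2 of 18). Mice with dilation were thus among the highest and the lowest. Single cells made up much of a mouse's level, such as 39 of the 52 Il5 UMIs in mouse 2 and 49 of the 59 in mouse 9, and 42 of the 46 Il13 UMIs in mouse 5. Without the large barcodes mouse 5 had 126 CPM of Il5 and 1180 of Areg (769 with them), and mouse 7 had 769 of Il5.

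The question of whether myeloid Jak2V617F was accompanied by a change in ILC2 was put to summed counts of mice 1, 2 and 5 against mice 6 to 10, since mice 3 and 4 had fewer than 10 ILC2. With edgeR's quasi-likelihood test and Benjamini-Hochberg adjustment, 0 of 1600 genes passed 0.05 (0%), DESeq2 called 0 as well, and 118 genes had an unadjusted p under 0.05. The absence of calls does not show that ILC2 were unchanged, since the fit recovered 28.5% of 2-fold changes in simulated counts. The groups did not overlap for 84 genes (5.25% of those tested), 57 higher and 27 lower in mutants. Without the filter on low counts the same test passed 299 genes, of which 50 were among the 1600. The median total of the 299 was 21 UMIs over all mice.

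Values are given for the 5 genes of smallest p in each direction, none of which passed. Nfkb1, the p105/p50 subunit of NF-kappaB, was at 302.9, 552.9 and 453.4 CPM in Jak2WT mice and 1128.6, 950.7, 653.6, 799.8 and 986.2 in mutant mice 6 to 10. The lowest mutant lay above the highest control (log2 fold change 0.98, SE 0.247, adjusted p = 0.424). Mxd1, a partner of MAX that opposes MYC, was at 168.3, 115.9 and 147.8 CPM against 367.6, 385.8, 471.2, 233.5 and 312.9, again without overlap (1.27, SE 0.282, adjusted p = 0.424). The acid-sensing receptor Gpr65 (1.17, SE 0.295), Tnfrsf18 (0.84, SE 0.231) and the scaffold gene Mpp7 (1.01, SE 0.279) had adjusted p values of 0.424, 0.514 and 0.514. With every mouse that had an ILC2, the values were 0.54 for Gpr65, 0.50 for Tnfrsf18 and 0.62 for Nfkb1.

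In the other direction, the zinc finger gene Zfp652 was at 117.8, 142.7 and 177.4 CPM in Jak2WT and 64.9, 58.6, 53.2, 58.4 and 47.4 in mutant mice (log2 fold change -1.42, SE 0.287, adjusted p = 0.404), with no overlap and little spread among mutants. The tetraspanin gene Cd81 (-0.94), Rer1 (-1.07) and Selenop (-1.29) did not overlap either, and Hspa1a, a heat-shock gene, did (-1.78). Without the 4 cells above 15000 UMIs, 2 in mouse 5 and 2 in mouse 7, the values were -0.52 for Cd81, -0.74 for Selenop and -0.73 for Hspa1a. For Zfp652 they were -1.35, for Mxd1 1.18 and for Nfkb1 0.81. In mouse 5, 1 cell held 61 of its 63 Hspa1a UMIs. Without the filter on low counts 8 of the 10 passed (Mxd1, Gpr65, Nfkb1, Tnfrsf18, Mpp7, Zfp652, Selenop and Hspa1a), and adjusted p over all alternatives reached up to 0.999 for each.

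**Figure D5:**
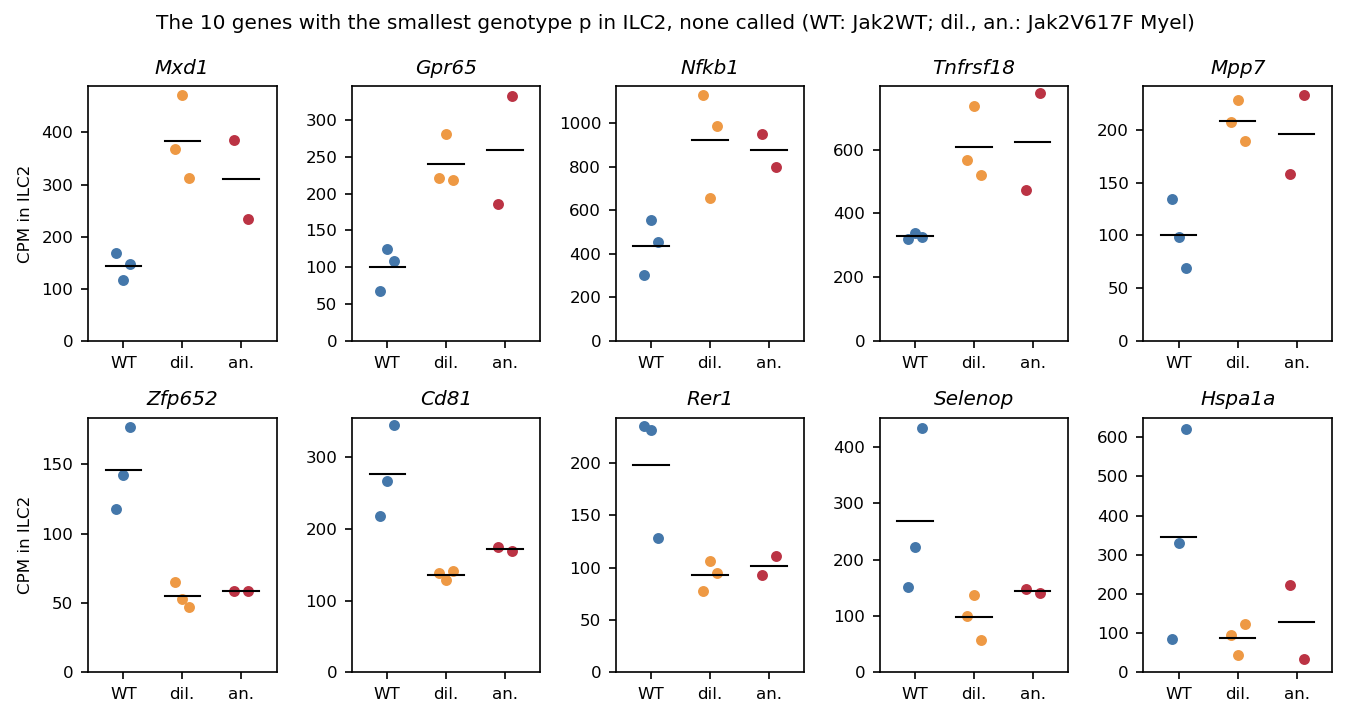
CPM in ILC2 for the 5 genes of smallest p in each direction between genotypes, 1 point per mouse (3 Jak2WT, 3 dilation, 2 aneurysm), black bars for group means and axes from 0. All but Hspa1a separate the genotypes without overlap, and none passed after adjustment over 1600 genes.

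Gene lists are described by their tested members, beside a median log2 fold change of 0.001 over all 1600 genes (803 above 0 and 797 below), and no member of any list passed the test. Of 13 tested type 2 cytokine and effector genes, 8 were above 0 and 5 below (median 0.46, or 0.02 without mouse 1). Csf2 was at 526 ± 212 CPM in Jak2WT (SD, n = 3) and 865 ± 317 in mutant mice (SD, n = 5), a log2 fold change of 0.69 (SE 0.324, adjusted p = 0.674 with edgeR). Areg differed by 0.55 (SE 0.431), the protease gene Furin by 0.56 (SE 0.347) and Calca by 0.75 (SE 0.468), all with overlap. Il13 was at 0, 1007.7 and 453.4 CPM in Jak2WT mice and 66.4 to 276.8 in mutants (-1.55, SE 0.598, adjusted p = 0.65), a value that went to -0.62 without mouse 2. Without its 2 large barcodes mouse 5 had 722 CPM of Il13. Ccl1 differed by -1.51 (adjusted p = 0.655). Tnfsf9, which encodes CD137L, was at 0, 35.7 and 19.7 CPM in Jak2WT mice and 43.2, 96.5, 98.8, 110.9 and 19 in mutants, with overlap (1.72, SE 0.712, adjusted p = 0.655).

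The 10 tested NF-kappaB feedback genes had a median of 0.45 with 7 above 0, and 4 of them with an unadjusted p under 0.05, against 118 of all 1600 genes (62 above and 56 below 0). Other lists had such genes too, with 7 of 22 immediate-early and heat-shock genes and 3 of 9 alarmin and cytokine receptors. There were 3 of 13 on the type 2 list, 3 of 13 on the transcription factor list and 3 of 15 trafficking genes. JAK-STAT and hypoxia genes had 0 of 9 each. The 4 NF-kappaB feedback genes were Nfkb1, Traf1 (1.09, SE 0.314), Birc3 (1.02, SE 0.445) and Rel (0.75, SE 0.335). Below 0 were Nfkbiz (-0.13, SE 0.2), Bcl2a1b (-0.29, SE 0.719) and Icam1 (-0.79, SE 0.845), and the inhibitor Tnfaip3 differed by 0.23 (SE 0.25). The list median ranged from 0.217 to 0.745 over 18 settings (the one reported included, DESeq2 and the fit without a filter left out, since they covered more members) and was 0.247 without mouse 1. That Jak2WT mouse stood apart, with a sum of 2642 CPM over the list against 6367 and 5352 in mice 2 and 5 and 5889 to 7654 in mutants, and also with 8364 CPM of immediate-early and heat-shock genes against 16360 or more in each of the other 7 mice. The most abundant member, the inhibitor Nfkbia, was at 1434 ± 853 CPM in Jak2WT (n = 3) and 2053 ± 281 (n = 5) in mutants, with overlap. For 9 tested JAK-STAT and feedback genes the median was 0.43 (7 above 0, range of the median 0.238 to 0.452), with the kinase Pim1 at 0.57 (SE 0.309), the STAT5 target Cish at 0.43 (SE 0.22) and the inhibitor Socs2 at -0.09 (SE 0.333). Among 9 alarmin and cytokine receptors (median 0.37, 6 above 0, or 0.712 without mouse 2, 0.248 without mouse 5 and 0.167 with every mouse that had an ILC2), Il2ra was at 304 ± 60.3 against 455 ± 62.9 CPM without overlap (0.56, SE 0.205, adjusted p = 0.619), Il4ra differed by 0.88 (SE 0.366), and Il1rl1 differed by -0.03 (SE 0.196).

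Of 13 tested genes on the transcription factor list (median 0.23, 9 above 0, or 0.0367 without mouse 10 and 0.0022 with thinned cells), Gata3 was at 660 ± 279 CPM in Jak2WT and 661 ± 70.3 in mutants. Rora differed by 0.40 (SE 0.216), Zfp36l1, which is on the list but encodes an RNA-binding protein, by 0.59 (SE 0.253), and Maf by -0.67 (SE 0.216), the last 2 without overlap. Hes1 differed most (1.74, SE 0.8, adjusted p = 0.67), with overlap and with 0 to 118.3 CPM in Jak2WT and 35 to 320 in mutant mice, and the value was 1.11 without mouse 2 and 4.68 without mouse 5. For 22 immediate-early and heat-shock genes the median was 0.13, from -0.17 without mouse 1 to 0.444 without mouse 2. Jund was at 0.69 (SE 0.227) and Junb at 0.50 (SE 0.234), but Jun at -1.11 (SE 0.399) and Fos at -0.81 (SE 0.341). These genes respond to digestion of tissue, and what handling contributed was not tested. Of 15 trafficking genes (median 0.11, from -0.121 to 0.232 over the alternatives), Cxcr4 did not overlap (1.28, SE 0.362, adjusted p = 0.514), and Ccr2 (-0.62, SE 0.259) and the integrin chain Itgb1 (-1.11, SE 0.429) did. Hypoxia and glycolysis genes (9 tested) had a median of 0.03 (from -0.575 to 0.0849, below 0 without mouse 5, 6, 8 or 9), 10 coreceptor and checkpoint genes 0.03 (from -0.171 to 0.891 over the alternatives), 4 mediator receptors 0.12 (from -0.413 to 0.256), 3 cell cycle genes 0.09 (from -0.21 to 0.236, below 0 without mouse 1, 5 or 8), and 2 interferon-stimulated genes -0.69 (from -0.828 to 0.0915, above 0 without mouse 8), from Ly6e (-0.02, SE 0.229) and Ifi27l2a (-1.36, SE 0.487). The most abundant members of these lists are given as values. Among receptors these were Il7r (0.37, SE 0.176) and Il2rg (0.31, SE 0.259), among transcription factors Ets1 (0.27, SE 0.233), and among mediator receptors Ramp1 (-0.39, SE 0.239), Ramp3 (0.36, SE 0.468), Ptgir (0.37, SE 0.417) and Lpar6 (-0.12, SE 0.44). Among trafficking genes they were Rgs2 (0.35, SE 0.385), Klf6 (-0.11, SE 0.265) and Cd69 (0.11, SE 0.328). The list of coreceptors and checkpoints also holds other genes, and its most abundant were of that kind. They were the surface gene Ly6a (-0.44, SE 0.231) and the MHC class II genes Cd74 (2.93, SE 1.25) and H2-Aa (2.96, SE 1.42), the last 2 resting on mouse 7. The others were Bcl2 (0.45, SE 0.258), Jak1 (-0.13, SE 0.219), Fosb (0.22, SE 0.292), Hspa8 (0.16, SE 0.166), Ldha (0.37, SE 0.226), Gapdh (-0.30, SE 0.188), Aldoa (-0.43, SE 0.236), Mif (-0.04, SE 0.238), Hmgb2 (0.17, SE 0.297), H2afz (0.09, SE 0.309) and Tubb5 (-0.26, SE 0.237).

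The macrophage markers (4 tested) had a median of 0.19 (from 0.00414 without mouse 8 to 0.287 with HTODemux). Apoe was at 0.10 (SE 0.315), C1qb at 0.20 (SE 0.394) and C1qa at 0.62 (SE 0.371). The T cell markers (3 tested) had one of -0.04 (from -0.204 to 0.11, above 0 without mouse 2, 6, 7 or 8), with Trbc2 at -0.16 (SE 0.3), Trbc1 at 0.17 (SE 0.314) and Cd3g at -0.04 (SE 0.382). Tcrg-C1 was the only gamma-delta T cell marker tested (-0.93, SE 0.381). Kit was the only mast cell marker (1.02, SE 0.587, or 1.71 without mouse 1, 0.554 without mouse 5 and 0.631 without mouse 9). No NK, ILC3, B cell, neutrophil, fibroblast or red cell marker was kept by the filter on low counts. The fibroblast list held 688 UMIs, but stood at 6495 CPM in mouse 5 and at most 76 in any other mouse of the fit.

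Jak2 itself was read in ILC2 as the gene that carries the mutation in myeloid cells. It was at 202, 98.1 and 138 CPM in Jak2WT mice and 294, 165.3, 319.2, 181 and 218.1 in mutant mice 6 to 10, with overlap (log2 fold change 0.69, SE 0.326, adjusted p = 0.6745). These counts do not tell the mutant from the normal allele. The mean of 202 CPM over the 8 mice was above that of B (105.5), mast (62.3), T (48.4), NK (41.6) and macrophage (32) cells, as a description. Lyz2, the gene whose promoter drives the Cre, was at 212 CPM in ILC2 against 183 in T cells and 7704 in macrophages, and differed by 0.19 between genotypes (SE 0.303, adjusted p = 0.9633). Jak2 was thus found in more of the ILC2 (54.2%, or 31.2% at 2000 UMIs) than of B cells (43.9%, or 19%) or T cells (27.5%, or 8.75%). Lyz2 in ILC2 was near its level in T cells.

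On the surface, 0 of 35 antibodies differed between genotypes by edgeR (0%), 6 had an unadjusted p under 0.05, and DESeq2 called 1, CD24. CD24, a heavily glycosylated adhesion molecule, was at 88.9, 42.4 and 42 counts per cell in Jak2WT mice 1, 2 and 5, and at 21.2, 32.5, 29.1, 36.2 and 24.8 in mutant mice 6 to 10. The groups did not overlap (log2 fold change -1.50 with TMM, SE 0.365, adjusted p = 0.07743, and -1.01 with the number of cells as library size), but mice 3 and 4, with 8 and 5 ILC2, had 12.9 and 14. With every mouse that had an ILC2, the log2 fold change was -0.77 (adjusted p = 0.6899). Without mouse 1 it was -0.73 (adjusted p = 0.2755), and without mouse 2 it passed (-1.56, adjusted p = 0.04239). DESeq2 gave an adjusted p of 0.0215. With TMM, IL1RL1 (-0.27, adjusted p = 0.8018), CD127 (-0.12, 0.8959) and CD44 (-0.35, 0.4531) were not called by edgeR. Their mean counts per cell were higher in mutant mice, so these negative signs depend on the scaling. Per cell, IL1RL1 ran from 0.6 to 1.462 in Jak2WT and 1.045 to 1.389 in mutant mice. CD127 ran from 1.556 to 2.846 and 1.864 to 4.056, and CD44 from 60.5 to 97.6 and 75.3 to 110.6. Each mouse was stained separately, and the part of staining in these values was not tested.

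Between the 2 aneurysm and the 3 dilation mice, 0 of 1876 genes passed (0%) with edgeR, and 0 with DESeq2, while 66 had an unadjusted p under 0.05. Groups of 2 and 3 mice did not overlap for 387 genes (20.6% of those tested). The MHC class II genes H2-Aa (log2 fold change 4.01, SE 0.884, adjusted p = 0.457) and Cd74 (3.53, SE 0.847, adjusted p = 0.505) had large values that came from mouse 7. Cd74 was at 4282 CPM there, at 140.1 in the other aneurysm mouse, and at 177.3, 167.2 and 208.6 with dilation. Without the 4 large barcodes the values were 0.29 for H2-Aa and -0.08 for Cd74, with Cd74 at 219 CPM in mouse 7. With mouse 9 left out, mouse 7 stood alone for aneurysm and was assumed to vary like the mice of the other groups. Then 6 genes passed, H2-Aa, H2-Ab1, H2-Eb1, Cd74, Ccl17 and Il1b. In that mouse 2 barcodes held 881 and 309 UMIs of Cd74, and 1 of them 381 of Ccl17.

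The adhesion molecule Icam1 was at 120.6 and 58.4 CPM in the aneurysm mice and at 13, 0 and 0 in the dilation mice, from 3 UMIs in all in the latter (log2 fold change 3.68, SE 0.814, adjusted p = 0.457). The annexin gene Anxa2 was at 192.9 and 81.7 CPM against 43.2, 7.6 and 9.5 (2.45, SE 0.551, adjusted p = 0.457). Without the large barcodes, mouse 7 had 62 CPM of Icam1, which was then not among the genes tested, and 120 of Anxa2 (log2 fold change 1.97). The fitted value of Icam1 depends on the prior count. Without mouse 6 no Icam1 UMI was left in the dilation mice, so no fold is given, and Anxa2 had 1 UMI in each of mice 8 and 10. In the other direction, the phosphatase gene Dusp10 was at 82.7 and 70.1 CPM against 181.6, 212.8 and 151.7 (-1.29, SE 0.343, adjusted p = 0.505), and Dach2 at 51.7 and 70.1 against 103.8, 197.6 and 180.2 (-1.43, SE 0.383). Also of smallest p were 1110004F10Rik (1.53, SE 0.392), Tcp1, a chaperonin subunit (-1.04, SE 0.343), the kinase gene Aak1 (-1.06, SE 0.359) and Smchd1 (-1.01, SE 0.352). All 8 separated the groups without overlap, as did 20.6% of all genes. Of 13 tested cytokine and effector genes 7 were above 0 (median 0.06, against -0.01 for all genes), of 15 genes on the transcription factor list 4 (median -0.12), and of 10 JAK-STAT genes 3 (median -0.17). The 13 tested genes on the coreceptor and checkpoint list, which also holds the MHC class II genes Cd74 and H2-Aa, had a median of 0.67, and the 7 mediator receptors one of -0.45. Jak2 differed by -0.75 (SE 0.294, adjusted p = 0.9718).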

How the data were processed

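Aortic CD45+ cells of 10 mice were analysed by CITE-seq, and the authors deposited 1 matrix of UMI counts with 8471 barcodes, 10 hashtags, 32285 genes and a panel of 75 antibodies, 73 of which had counts. Per the file headers the counts were made with Cell Ranger 6.0.2 on mm10, and the submitters' processing notes also name Seurat 3.0.0. Counts were not normalized. Here hashtag, mitochondrial and UMI limits left 7196, then 6098, then 5894 barcodes. Counts were summed per mouse and class. Mice with at least 10 ILC2 entered the fits (3 Jak2WT, 5 Jak2V617F Myel), with filterByExpr, TMM and the quasi-likelihood test of edgeR 4.0.16, adjusted by Benjamini-Hochberg over all features kept, threshold 0.05. DESeq2 1.42.0 was an alternative, as were another hashtag ratio, HTODemux (Seurat 5.3.0), other UMI, mitochondrial and marker limits, other library sizes, cells thinned to 2000 UMIs, and leaving out each mouse in turn. The limit of 15000 UMIs was added after seeing the data. Shares were compared by exact permutation over mice, with exact Clopper-Pearson 95% intervals. Mice are separate animals. The genotype fits were tested on simulated counts with a set spread between mice, not one taken from these data. For genes, 28.5% of 2-fold and 97.1% of 4-fold changes among the genes kept were recovered. For antibodies, 78.6% of 2-fold changes were recovered.

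The members and the 22 gene lists (334 genes, 1 not in the matrix) were chosen with earlier results of these data known. Genes were named by a rule: the markers and the genes of the selection, the 20 with the highest ratio to other cells, called members and the most abundant 4 of a list, Jak2 and Lyz2, and the 5 of smallest p in each direction where fewer than 5 passed. A few items are not reported here. Other list genes and those that go with Il5 or Il13 were chosen after their values were seen. Promoters came from RefSeq (GRCm38.p6) and gene positions from GENCODE M21. Cell classes were gated here on transcripts.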

Additional observations from a re-analysis of the deposited data

Results flagged for a closer look

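In mouse 7 the ILC2 had 4282 CPM of Cd74 and 1912 CPM of H2-Aa, far from the other 4 Jak2V617F Myel mice. Of 30 groups of 5 mice looked at, these 2 stood out, and chance flags about 1 in 20 groups. Without the 2 barcodes above 15000 UMIs of that mouse Cd74 was at 219 CPM and H2-Aa at 62 CPM.

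Among the 1164 barcodes that failed only the hashtag limit, and so belonged to no mouse, 3 met the transcript rule of ILC2.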

How the results depend on the processing

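The genotype difference in ILC2 share kept its sign under 19 of 19 alternatives. As a share of CD45+ cells it was 0.639 to 2.446 percentage points, of cells low in C1q 3.457 and of lymphoid cells 8.078 (p from 0.09524 to 0.4524 by exact permutation). The aneurysm difference turned its sign with cells of at most 15000 UMIs (0.05365), with lymphoid cells as denominator (4.999), without mouse 6 (0.297) and without mouse 9 (0.1584), and leaving out a mouse gave -0.9704 to 0.297, with p from 0.4 to 1 over its alternatives. The causes were not tested.

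No gene passed between genotypes except without the filter on low counts (299 genes, 58 higher and 241 lower) and without mouse 2 (1, Ifi27l2a), so leaving out a mouse gave 0 to 1. Between aneurysm and dilation 32 genes passed without the filter, and leaving out a mouse gave 0 to 6, the 6 being H2-Eb1, H2-Ab1, Il1b, Cd74, Ccl17 and H2-Aa without mouse 9. One antibody, CD24, passed between genotypes with DESeq2 (1) and without mouse 2 (0 to 1 over the mice). The count of antibodies that differed between ILC2 and T cells was 21 to 34, with 22 to 26 when a mouse was left out and 23 of 46 without the mouse block. No called antibody turned its sign. No paired analysis was possible between genotypes because the mice carry no shared replicate numbers. Depth limits the genes tested, since the ILC2 of the 8 mice in the fits held between 59419 (mouse 1) and 290305 UMIs (mouse 7).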

Other observations

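Another 146 cells met every part of the rule but Gata3. Their median depth was 15719.5 UMIs, 61.6% had an Il7r UMI, 43 had a marker sum of at least 5 (against 180 of the 201 members), and they carried on average 0.486 IL1RL1 and 1.0 CD127 counts. An IL1RL1 count was found in 32.2% of them and 63.2% of members.

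Within ILC2, antibody and transcript of the same gene went together to different degrees over the 201 cells, which share 1 run and differ in depth. Spearman's rho was 0.48 for CD24 and Cd24a, 0.41 for CD44, 0.32 for CD117 and Kit, 0.28 for CD127 and Il7r, 0.23 for IL1RL1 and 0.2 for CD278 and Icos. The same antibodies against the summed counts of all other antibodies in the cell gave -0.09, 0.17, 0.16, 0.05, 0.07 and -0.02. For CD49d and Itga4 (0.21 against 0.23), CD9 (0.19 against 0.18), CXCR4 (0.02 against 0.12), CCR2 (-0.07 against 0.09) and ITGB7 (-0.04 against -0.05) the first value, with the transcript, was close to or below the second, with the other antibodies.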
